A study of Mus musculus with 12 samples.

Results

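Matrilins, Comp, chondroadherin, aggrecan and link protein, the proteins that fasten the collagen fibrils and the proteoglycans of cartilage to one another, were followed in the hypertrophic zone of the mouse growth plate. The members were every non-control probe that the array's annotation names Matn1, Matn2, Matn3, Matn4, Comp, Chad, Agc1 (the older symbol of aggrecan, now Acan), Hapln1 or Prg4. Of these 9 symbols 8 were on the array, with 9 probes in all, among 27962 genes that the array names by a symbol. Hapln1 had 2 probes and the other genes 1 each. Prg4 was not used as a name, and a probe whose description alone names that gene is treated separately at the end.

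Hypertrophic zones were cut by scalpel from frozen sections of a single tibia per mouse, and the RNA was amplified linearly before labelling with Cy3. All mice were 14 days old, in 4 groups of 3 with an array each. Schmid mice carried the collagen X substitution p.Asn617Lys in both copies of Col10a1, and Cog mice carried the transgene ColXTgcog, in which the Col10a1 promoter drives a thyroglobulin that misfolds. Each mutant had wildtype littermates on its own background. Hemizygous and homozygous Cog mice were not told apart, so transgene dose may vary within that group. Both mutants place a misfolded secreted protein in the endoplasmic reticulum of hypertrophic chondrocytes, and the comparisons ask how transcripts for other secreted cartilage proteins stood in each.

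In cartilage, matrilins form filaments that link collagen fibrils with proteoglycans. Comp, also known as thrombospondin 5, binds collagens and matrilins, and chondroadherin is a small leucine-rich protein that binds collagen II and cells. Aggrecan is the large proteoglycan that holds water in the tissue, and link protein (Hapln1) locks it onto hyaluronan. Growth plate chondrocytes are known to make most of these proteins before and during hypertrophy, while Prg4 (lubricin) is known from the joint surface.

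The probes below are the stretches of transcript on which the 3 members called in a mutant were measured, with both link protein probes, which sample different stretches of 1 transcript. They were read from the deposited array annotation, are written 5′ to 3′ and are all in lower case because no stretch within them is singled out. Positions are those of the annotation, in mouse build mm7 (NCBI35): chr4:130167349-130168758 for Matn1, chr15:34544967-34545026 for Matn2, chr11:94677861-94677920 for Chad, and chr13:86682433-86682492 and chr13:86683142-86683201 for Hapln1, all listed in ascending order. The Matn1 span covers 1410 bases for a probe of 60, so the probe is listed as split over the genome, and the other 4 spans have the length of the probe.
Matn1: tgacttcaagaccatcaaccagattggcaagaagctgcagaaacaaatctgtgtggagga
Matn2: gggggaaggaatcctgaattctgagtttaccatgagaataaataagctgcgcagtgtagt
Chad: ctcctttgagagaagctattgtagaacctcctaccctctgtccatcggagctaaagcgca
Hapln1 (brighter probe): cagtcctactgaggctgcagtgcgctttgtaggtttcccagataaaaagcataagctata
Hapln1 (dimmer probe): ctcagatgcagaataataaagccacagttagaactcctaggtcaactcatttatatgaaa

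Signals are given as normalized log2 values, on which a step of 1 is a doubling. A probe was called when limma's adjusted p, by the Benjamini-Hochberg method over 41174 probes, was 0.05 or less with a difference of at least 2-fold. The labels were checked first: Tgn, the thyroglobulin gene, was 7.90 log2 units higher in Cog than in its wildtype (adjusted p = 1.24e-09 by limma), and Hspa5, the ER chaperone BiP, was higher by 2.04 in Schmid and by 2.27 in Cog (adjusted p = 0.00138 and 0.00518). The arrays lay on 4 slides, and each mutant was on other slides than its wildtype, so effects of slide and of genotype cannot be told apart. Between 39.6 and 61.8% of an array's spots were well above background, and all 9 member probes were well above background on all 12 arrays.

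In Schmid, 3 of the 9 member probes fell and none rose. Matn1 was 6.11-fold, Chad 3.84-fold and Matn2 3.40-fold lower than in wildtype mice of the same background. In the reported setting Comp, aggrecan and link protein differed from that wildtype by 1.21-fold or less. Over all probes, 4.69% were called lower and 5.78% higher in this comparison. That balance depended on the signal and scaling, with 9.79% lower and 7.24% higher for the scanner's processed signal scaled to the 75th percentile, 9.68% and 7.01% for it quantile normalized, and 8.39% and 6.24% for normexp values scaled to the 75th percentile. In Cog none of the 9 was called in either direction, against 0.748% of all probes lower and 1.56% higher.

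**Figure D1:**
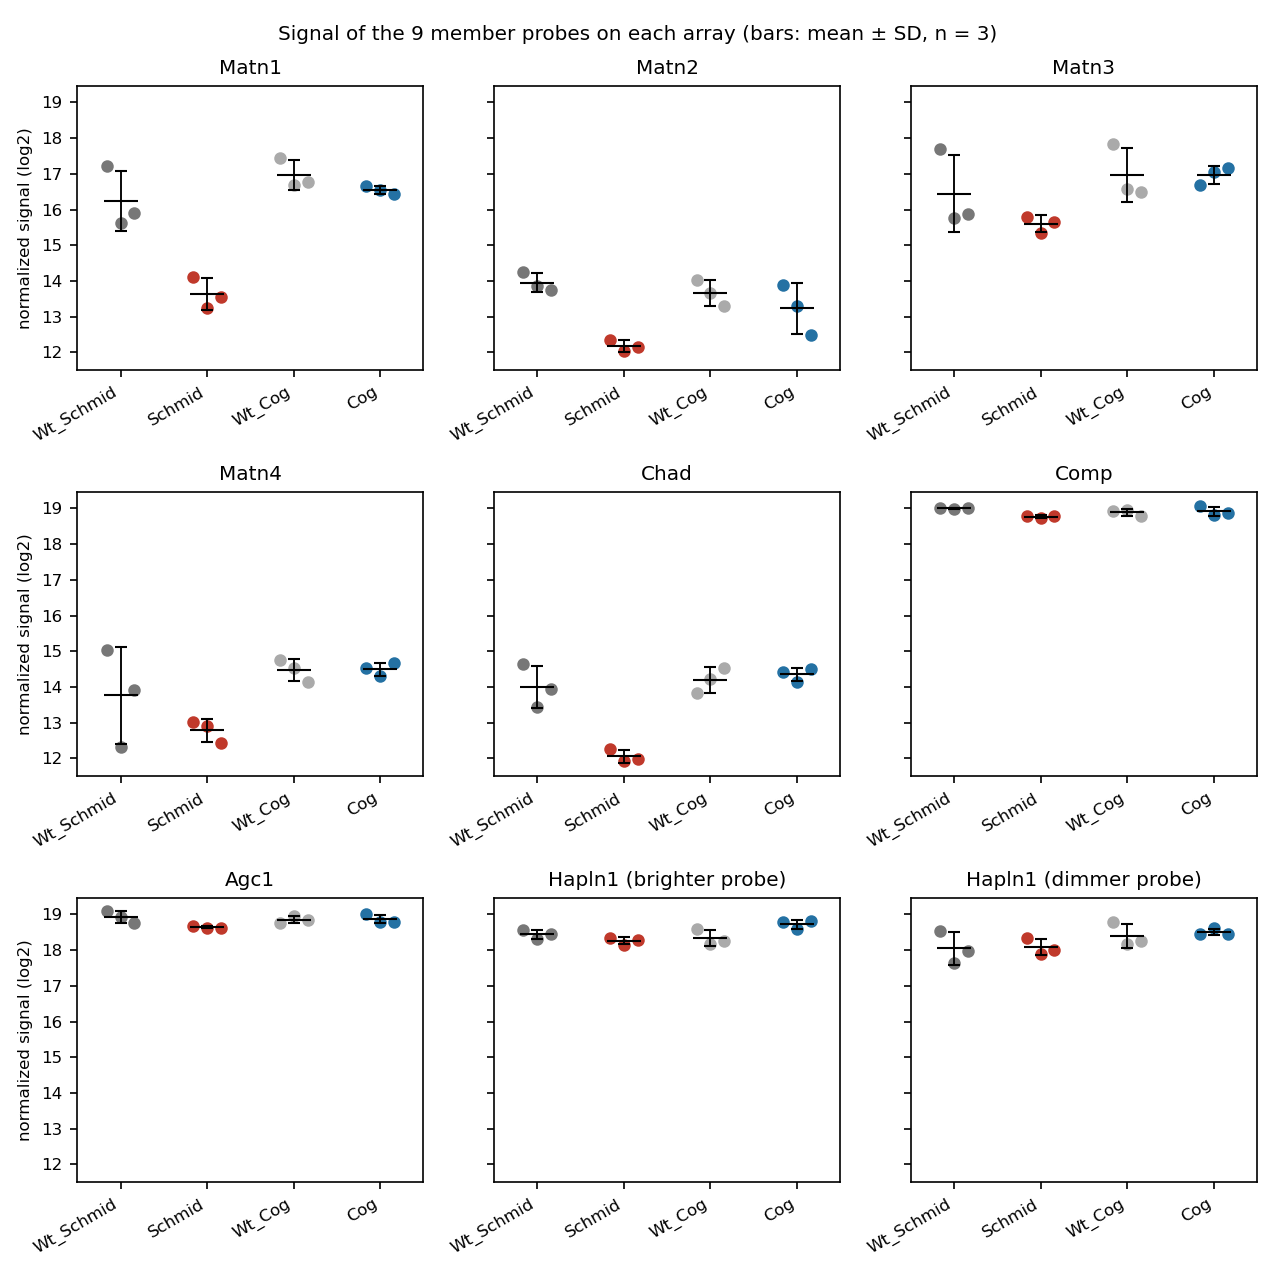
Normalized log2 signal (y axis) of the 9 member probes on each of the 12 arrays, by group (x axis, where Wt_Schmid and Wt_Cog are the wildtype mice of each background), with 1 point per mouse and bars for mean ± SD (n = 3). The Schmid points of Matn1, Matn2 and Chad lie below all points of the other groups, and those of Comp, Agc1 and Hapln1 lie within 1 log2 unit of the rest.

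Matn1, a matrilin of cartilage, read 14.13, 13.26 and 13.54 on the Schmid arrays and 17.21, 15.64 and 15.90 on their wildtype arrays. It read 16.67, 16.54 and 16.44 in Cog and 17.45, 16.69 and 16.78 in the wildtype of the Cog background. Every Schmid mouse was below every other mouse, and the Cog mice lay just below their wildtype with no overlap. The Matn1 spot was marked as taken from the scanner's low-gain scan on every array outside the Schmid group and on no Schmid array. The part of scan gain in the Schmid change was not tested. Group means were 13.64 ± 0.44 in Schmid, 16.25 ± 0.84 in its wildtype, 16.55 ± 0.11 in Cog and 16.98 ± 0.42 in the wildtype of the Cog background (SD, n = 3 each). The change in Schmid was -2.61 log2 units (95% interval -3.46 to -1.76, adjusted p = 0.00138 by limma). The change in Cog was -0.43 (-1.28 to 0.43, adjusted p = 0.567), which did not pass the test. In the order of the group means the step from Schmid to its wildtype was beyond the spread. The next neighbours, wildtype Schmid and Cog, overlapped, and the step from Cog to its wildtype did not pass the test.

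Matn2, a matrilin that is also made outside cartilage, read 12.36, 12.03 and 12.17 in Schmid against 14.24, 13.86 and 13.75 in its wildtype. In Cog it read 13.90, 13.31 and 12.49, against 14.04, 13.67 and 13.30. The Schmid mice were again below all others, and Cog replicate 3, at 12.49, lay close to the highest Schmid value while the other Cog mice overlapped their wildtype. The change was -1.77 in Schmid (-2.47 to -1.06, adjusted p = 0.00369 by limma) and -0.43 in Cog (-1.14 to 0.27, adjusted p = 0.47).

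Matn3, the matrilin mutated in a form of multiple epiphyseal dysplasia, read 15.81, 15.35 and 15.66 in Schmid and 17.68, 15.76 and 15.89 in its wildtype. The highest Schmid value lay above the lowest wildtype value, so these groups overlapped, and the wildtype SD of 1.08 came mainly from replicate 1. The change of -0.84 did not pass the test (-1.94 to 0.26, adjusted p = 0.233 by limma), and without wildtype replicate 1 it was -0.22 (adjusted p = 0.674). In Cog the means were 16.97 ± 0.26 and in its wildtype 16.96 ± 0.75, a change of 0.00 (-1.09 to 1.10, adjusted p = 0.996).

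Matn4, the remaining matrilin, read 13.02, 12.91 and 12.42 in Schmid and 15.04, 12.33 and 13.92 in its wildtype. Wildtype replicate 2 was thus lower than every Schmid mouse, and the other wildtype mice were higher than every Schmid mouse. The change of -0.98 did not pass the test (-2.15 to 0.19, adjusted p = 0.193 by limma). Single wildtype mice decided its size, since the change was -0.34 (adjusted p = 0.55) without wildtype replicate 1 and -1.70 (adjusted p = 0.0109, called) without wildtype replicate 2. In Cog the change was 0.02 (-1.14 to 1.19, adjusted p = 0.985).

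Chad, which encodes chondroadherin, read 12.27, 11.93 and 11.98 in Schmid and 14.63, 13.44 and 13.94 in its wildtype. It read 14.41, 14.15 and 14.50 in Cog and 13.82, 14.24 and 14.54 in the wildtype of the Cog background. The Schmid mice stood apart from the other 9 mice, whose values overlapped between all 3 groups. The change was -1.94 in Schmid (-2.56 to -1.32, adjusted p = 0.00123 by limma) and 0.16 in Cog (-0.46 to 0.78, adjusted p = 0.792).

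Comp, the pentameric bridge between collagens, read 18.78, 18.73 and 18.80 in Schmid and 19.01, 18.99 and 19.00 in its wildtype. All 3 Schmid values were lower, by a small amount, and the change of -0.23 did not pass the test (-0.46 to -0.01, adjusted p = 0.115 by limma). Agc1, aggrecan, read 18.69, 18.63 and 18.63 in Schmid and 19.10, 18.92 and 18.76 in its wildtype. It was also lower on all 3 Schmid arrays, by 0.28, without passing the test (adjusted p = 0.103). In Cog both probes overlapped their wildtype, with changes of 0.03 (-0.19 to 0.25) for Comp and 0.02 (-0.24 to 0.27) for Agc1. Both probes read close to 19.18, the top of the normalized scale, and the Comp spot of wildtype Schmid replicate 3 was marked as saturated. With the scanner's processed signal scaled to the 75th percentile, the Schmid changes were -0.62 for Comp and -0.75 for Agc1. Neither was called (adjusted p = 0.289 and 0.218 by limma). Over the 25 alternatives the changes ranged from -0.62 to 0.11 for Comp and from -0.75 to -0.003 for Agc1. The adjusted p of Agc1 went down to 0.038, with a change short of 2-fold. The part of the top of the scale in these shifts was not tested.

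Hapln1, link protein, read 18.35, 18.15 and 18.28 at its brighter probe in Schmid and 18.56, 18.31 and 18.45 in its wildtype. At its dimmer probe the Schmid arrays read 18.34, 17.90 and 18.01 and the wildtype arrays 18.55, 17.63 and 17.97. The groups overlapped at both probes, with changes of -0.18 (-0.48 to 0.12, adjusted p = 0.341 by limma) and 0.03 (-0.49 to 0.56, adjusted p = 0.929). The sign at the brighter probe was not stable, since the change was 0.04 with the scanner's processed signal in quantile normalization. Both probes read near the top of the normalized scale, at 18.44 and 18.26 on average, and the part of this in the small changes was not tested. In Cog the brighter probe was 0.38 higher than in wildtype (0.09 to 0.68, adjusted p = 0.131), and the dimmer probe 0.11 higher (-0.42 to 0.64, adjusted p = 0.833).

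**Figure D2:**
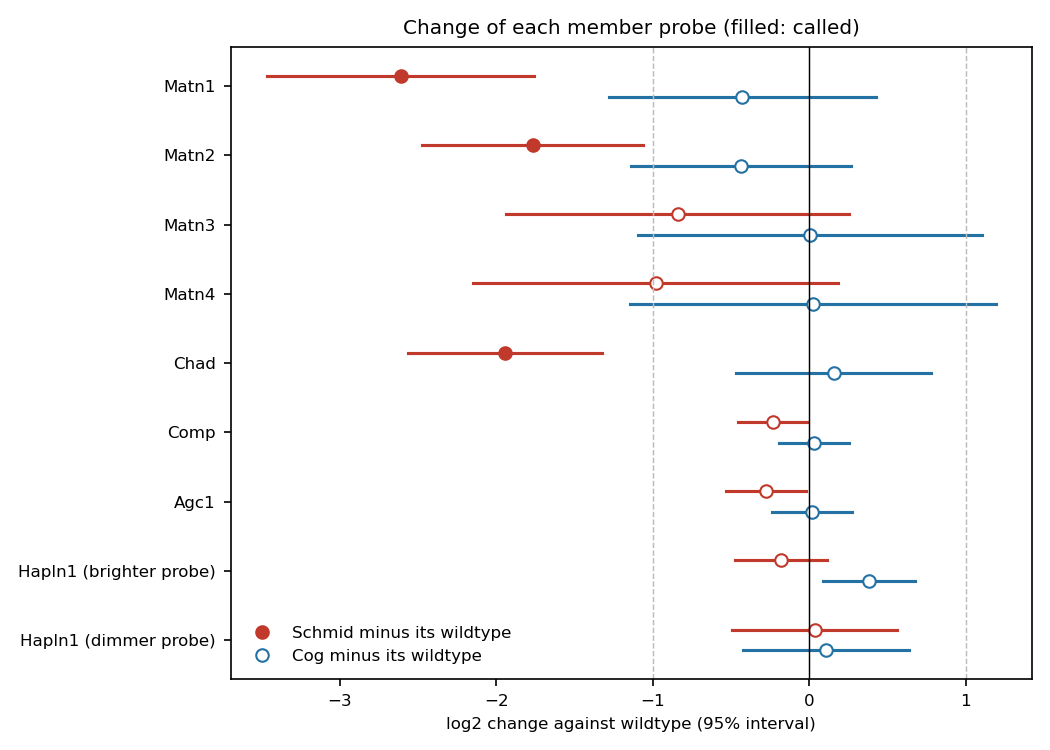
Change of each member probe against the wildtype of the same background on a log2 scale (x axis), with 95% intervals from limma, in Schmid (red) and Cog (blue). Filled points were called, and dashed lines mark a 2-fold change. The called points are Matn1, Matn2 and Chad in Schmid, at -2.61, -1.77 and -1.94, and no Cog point was called.

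In 5 of the 9 probes (Matn1, Matn2, Chad, Comp and Agc1) all 3 Schmid arrays were below all 3 wildtype arrays, against 26% of all probes. In Cog this held for Matn1 alone, against 13% of all probes. The median change over the 8 genes, at the brighter probe of each, was -0.91 in Schmid and 0.02 in Cog, beside -0.06 and -0.004 over all probes. Without wildtype Schmid replicate 1 the median over the 8 genes was -0.28 in Schmid, and without wildtype Schmid replicate 2 it was -1.44. Since the tissue was profiled in bulk, fewer cells that make a transcript and less of it per cell cannot be told apart.

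The difference between the mutants was tested directly, as the Schmid change minus the Cog change. It was called for Matn1 at -2.18 (SE 0.54, adjusted p = 0.0227 by limma) and for Chad at -2.10 (SE 0.40, adjusted p = 0.00686). Of all probes, 5.88% were called lower and 4.38% higher in this test. The Matn2 difference of -1.33 missed the threshold (SE 0.45, adjusted p = 0.0685). It passed with the replicate number as a block (adjusted p = 0.0214), with array weights (0.0119) and with slide as a random block (0.0222). The slide block cannot separate slide from genotype, and the correlation fitted within slides was negative, at -0.12. Also short of the threshold was that of the brighter Hapln1 probe, at -0.56 (SE 0.19, adjusted p = 0.0666). For the 5 other probes the difference lay between -1.004 and -0.07 with adjusted p from 0.231 to 0.903. The Chad difference was called under all 24 alternatives, with adjusted p up to 0.0418, whereas that of Matn1 was lost under 8 of them, with adjusted p up to 0.0948.

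The control groups were compared as well. No member probe was called between wildtype mice of the Cog and of the Schmid background, against 0.233% of all probes lower and 0.236% higher in the Cog background. The widest gaps were 0.72 for Matn1 (adjusted p = 0.445 by limma) and 0.71 for Matn4 (adjusted p = 0.607), both higher in the Cog background. Leaving out wildtype Schmid replicate 1 raised the Matn1 gap to 1.20, with an adjusted p of 0.0495, which was past the threshold.

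In the Schmid comparison the members also varied together between mice of 1 group. Wildtype Schmid replicate 1 was above its group mean at 9 of 9 member probes and wildtype Schmid replicate 2 at 0 of 9, whereas 37.5% and 58.1% of all probes were above the group mean on those arrays. Schmid replicate 1 was above its group mean at 9 of 9, with 48.8% of all probes above it, and Schmid replicates 2 and 3 at 1 and 3. The other groups were less uniform, with 7, 3 and 4 of 9 on the Cog arrays and 7, 4 and 1 on those of their wildtype. The median deviation of the 9 probes was 0.50 on wildtype Schmid replicate 1 and -0.42 on replicate 2. Matn4 had the widest deviations, 1.28 and -1.43 on these arrays, and Comp the narrowest, within 0.01.

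**Figure D3:**
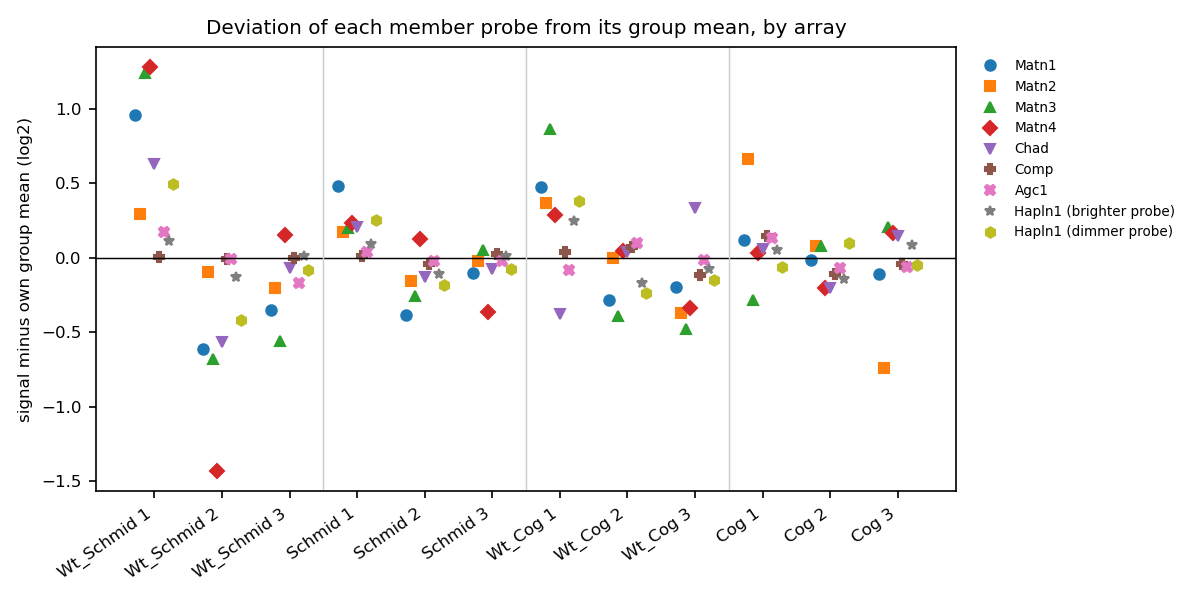
Signal of each member probe minus the mean of its own group, on a log2 scale (y axis), for each of the 12 arrays (x axis). All 9 probes are at or above 0 on wildtype Schmid replicate 1 and on Schmid replicate 1, and all 9 are below 0 on wildtype Schmid replicate 2.

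Position on the array moved with the Schmid calls. Counting probes with a single spot, 10.4% passed as lower in Schmid within rows 1 to 159, and 2.27% did so in rows 160 to 532. The probes of Matn1 (row 21) and Matn2 (row 126) lie in the first of these bands, together with the brighter Hapln1 probe (row 61), and that of Chad lies in row 531. With a smooth trend over rows removed from each array, the Schmid changes were -2.36 for Matn1, -1.63 for Matn2 and -2.04 for Chad, all still called. In the same setting the Matn1 difference between the mutants was -1.80 with an adjusted p of 0.0636, and was not called.

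The genes whose profile over the 12 arrays lay nearest to each called member were found among 7717 genes well above background on all arrays. Likeness was the mean absolute difference between profiles, each centred on its own mean. Nearest to Matn1, at 0.34, were Ctgf, a secreted growth factor binding protein, and Arsi, a sulfatase, followed at 0.35 by Frzb, a secreted Wnt antagonist. Matn1 itself deviated from its mean by 1.14 on average. Nearest to Matn2 (mean deviation 0.67) were the ubiquitin ligase Znrf1 at 0.22, Thbs4 at 0.22 and Scrg1 at 0.23. Nearest to Chad (mean deviation 0.83) were Bmp1, the procollagen C-proteinase, at 0.27, Ltbp3, which holds latent TGF-beta, at 0.30, and again Frzb, at 0.31.

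The thrombospondin family, to which Comp belongs, has 4 other members on the array, of which 3 fell in Schmid, with a median change of -1.83 over the 4. Thbs2 was 5.70-fold lower (adjusted p = 0.000649 by limma), Thbs3 5.21-fold (adjusted p = 0.000244) and Thbs4 2.41-fold (adjusted p = 0.0473), and Thbs1 was not called at -0.45. A dimmer Thbs4 probe, well above background on 9 of 12 arrays, read the other way without a call (0.82, adjusted p = 0.424). In Cog, Thbs2 rose 2.60-fold (adjusted p = 0.0373), opposite to its change in Schmid, and the 3 others were not called. The difference between the mutants was called for Thbs2 and Thbs3. Comp itself was at -0.23 and 0.03.

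Among the 11 hyaluronan and lectican partners of aggrecan and link protein, only Hapln3, Has2 and Cd44 were well above background on all 12 arrays. At the brightest probe of each gene none fell in Schmid and Tnfaip6, which modifies hyaluronan with inter-alpha-inhibitor chains, rose 2.87-fold (adjusted p = 0.0179 by limma). A dimmer Has2 probe was called lower in Schmid (-1.24, adjusted p = 0.0456). In Cog the link protein Hapln4 was called lower (adjusted p = 0.0017) and the other 10 were not called. It was well above background on all 3 wildtype arrays and on no Cog array, so its level in Cog was at least 1.95-fold lower. The wildtype groups also differed at Hapln4, by 0.90 (adjusted p = 0.00922 by limma), higher in the Cog background and short of 2-fold. The list median was -0.41 in Schmid and -0.34 in Cog. The other link protein genes Hapln2 and Hapln3 were at -0.38 and -0.55 in Schmid without a call, Hapln2 being well above background on 2 of 12 arrays. Hapln4 went the other way in Schmid, at 0.77 (adjusted p = 0.00133 by limma), short of 2-fold. It was well above background on all 3 Schmid arrays and on 1 of their wildtype arrays. Its difference between the mutants was called (1.85, adjusted p = 0.000377).

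Of the 6 collagens of the cartilage fibril 3 fell in Schmid, namely Col9a3 3.06-fold, Col11a2 3.01-fold and Col9a2 2.25-fold (adjusted p = 0.0082, 0.000815 and 0.00877 by limma), and none was called in Cog. Collagen IX and XI chains sit on and in the collagen II fibril, to which matrilins and Comp bind. Col2a1, the main fibril collagen, was at -0.37 (adjusted p = 0.0642) at its brightest probe. Another bright Col2a1 probe was at -0.56 (adjusted p = 0.00853), short of 2-fold. They read 18.59 and 18.52 on average, near the top of the scale. Col11a1 was at 0.03 at its brightest probe, which read 19.02 on average, also close to the top. A dimmer Col11a1 probe, at 15.34, was called lower in Schmid (-1.64, adjusted p = 0.0372). The list median was -1.04 in Schmid and -0.32 in Cog.

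Of the 10 small leucine-rich proteoglycans, the wider family of chondroadherin, only Fmod fell in Schmid, 2.99-fold (adjusted p = 0.0215 by limma), and none was called in Cog. A dim decorin (Dcn) probe, well above background on 3 of 12 arrays, was called higher in Schmid (2.01, adjusted p = 0.00355), while the brightest was at 0.64 without a call. The list medians were -0.16 and -0.10. Of 9 other secreted chondrocyte proteins 3 fell in Schmid, which were 1110017I16Rik (a synonym of Ucma in RefSeq) 4.44-fold, Mia1 3.53-fold and Scrg1 3.53-fold, with adjusted p of 0.00729, 0.00175 and 0.00345, and none was called in Cog. Snorc, named 3110079O15Rik on the array, was at -0.32, and Cilp was above background on no array.

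Of 15 proteases and inhibitors, among them the ADAMTS enzymes that cut aggrecan and Comp, Mmp9 alone fell in Schmid at the brightest probe of each, 7.03-fold (adjusted p = 0.00363 by limma), and its other probe was at -1.80 without a call (adjusted p = 0.166). A dimmer Adamts9 probe was called lower as well (-1.35, adjusted p = 0.0289). Adamts4 and Adamts5, the aggrecanases, were at -0.77 and 0.19 without a call. Adamts4 (adjusted p = 0.0396 by limma) was well above background on all 3 wildtype arrays and on no Schmid array, so it was at least 1.71-fold lower. Adamts5 was well above background on 9 of 12 arrays. None of the 7 chondrocyte transcription factors was called in either mutant, with list medians of -0.34 in Schmid and -0.26 in Cog. Their summed level was 17.14 to 17.17 in Schmid against 17.43 to 18.22 in its wildtype, without overlap. At their brightest probes Sox9, which drives many of the members in chondrocytes, was at 0.46 in Schmid and Sox6 at 1.08 (adjusted p = 0.0569). The rest were lower in Schmid: Mef2c at -0.96, Runx2 at -0.68 (adjusted p = 0.0271, short of 2-fold), Trps1 at -0.64, Runx3 at -0.34 and Sox5 at -0.31. Other Sox9 probes, well above background on 12 and 9 arrays, went the other way, at -0.37 and -0.42 without a call. A dimmer Sox6 probe, well above background on 11 arrays, was at 0.10.

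**Figure D4:**
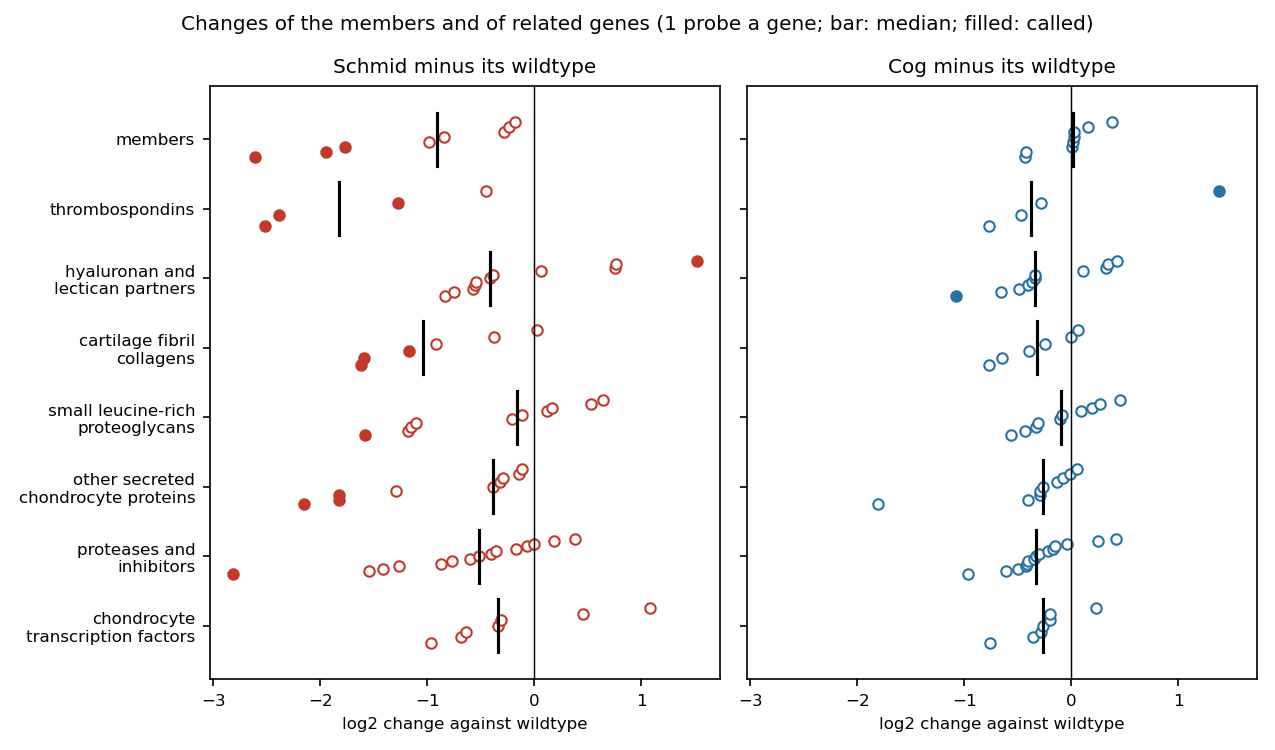
Log2 change against wildtype (x axis) of the members and of 7 lists of related genes (rows), in Schmid (left) and Cog (right), with the brightest probe of each gene as a point, the list median as a bar and called genes filled. In Schmid the thrombospondins have the lowest list median, at -1.83, and in Cog the filled points are Thbs2 and Hapln4.

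Markers of other cells that a dissected hypertrophic zone could hold moved with the Schmid group as well. Of 5 red cell markers 3 fell in Schmid (Hbb-b1, Hba-a1 and Alas2), and their summed log2 level ranged from 14.59 to 16.05 in Schmid against 17.94 to 19.91 in wildtype. Of 6 endothelial markers 4 fell, with sums from 12.72 to 13.13 against 14.56 to 15.23. The sums of the 8 proliferating cell markers, of which Mki67 and Birc5 fell, overlapped, from 14.94 to 15.31 against 15.10 to 16.36. Pcna, a marker of that list well above background on all 12 arrays, went the other way without a call (1.40, adjusted p = 0.0548 by limma). The sums of 6 osteoblast markers, of which Col1a1 fell, also overlapped, from 18.99 to 19.48 against 19.40 to 20.22. The part of these cells in the changes of the members was not tested.

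Of the 7 markers of hypertrophic chondrocytes themselves, Ihh and Akp2 fell in Schmid, by 11.7-fold and 2.16-fold, and Ihh fell in Cog, by 2.58-fold (adjusted p = 0.000136, 0.021 and 0.0361 by limma). Col10a1, the defining marker of the labelled tissue, was well above background on all arrays, and its changes of -0.02 in Schmid and 0.996 in Cog were not called. Summed over the 7 markers, the level was 18.58 to 18.92 in Schmid against 19.09 to 19.92 in its wildtype. In Cog it was 19.49 to 19.72, which overlapped the 19.58 to 20.31 of its wildtype.

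In Cog, where no member was called, 0 of 5 red cell markers and 1 of 6 endothelial markers (Cldn5) fell. The summed red cell level was 16.58 to 18.15 against 17.18 to 18.22 in wildtype, which overlapped. The endothelial sum was 13.77 to 14.53 against 14.92 to 15.66, so every Cog array was below every wildtype array. Without a call, Emcn was at -1.43, Kdr at -1.08 and Cdh5 at -0.67 in Cog (adjusted p = 0.062, 0.177 and 0.038 by limma). Tek, at 0.38, and Pecam1, at 0.09, went the other way. None of 4 osteoclast markers was called in either mutant.

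The probe described as Prg4, at chr1:150375688-150376428 of mm7 and named on the array by a transcript identifier only, was examined because lubricin was on the list of symbols. It lies outside the rule above. Its sequence is shown since the call rests on this probe alone.
Probe described as Prg4: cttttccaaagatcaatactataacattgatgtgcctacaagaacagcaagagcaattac

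It read 12.52, 13.50 and 12.11 in Schmid and was well above background on all 3 arrays. On no wildtype array of that background was it well above background, where it read 8.18, 8.29 and 7.82. The Schmid level was therefore at least 10.6 times the wildtype level (adjusted p = 0.00169 by limma). This bound takes, on each wildtype array, the dimmest signal that any probe well above background had. None of the Cog arrays had it well above background. In the wildtype of the Cog background it read 11.11 on replicate 1, where it was well above background, and 8.12 and 8.09 on the others, where it was not. The difference between the mutants was called at 5.79 (adjusted p = 0.00469), a value that rests on signals at background, and on wildtype Cog replicate 1, and is no measure of size.

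Of 8 synovial and tendon markers, listed because lubricin is made at joint surfaces, Thy1 fell in Schmid (adjusted p = 0.00031 by limma). None rose at the brightest probe of each gene, and Scx, at 0.95 (adjusted p = 0.0286), was short of 2-fold. A dimmer Clic5 probe, well above background on 4 of 12 arrays, was called higher in Schmid (1.36, adjusted p = 0.0114). Tnmd and Cilp were above background on no array. The summed level of the list was 15.90, 16.51 and 14.91 in Schmid, with 15.64 to 16.41 in its wildtype. None of 6 skeletal muscle markers was called, with sums of 15.02, 16.99 and 13.14 in Schmid and 16.30 to 17.03 in wildtype. Both sums stood in the same order on the 3 Schmid arrays as the Prg4 probe, highest on replicate 2 and lowest on replicate 3, and their part in its signal was not tested. Wildtype Cog replicate 1, with a signal at the Prg4 probe, had a synovial and tendon sum of 15.90 and a muscle sum of 13.30, both within the range of the other arrays.

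**Figure D5:**
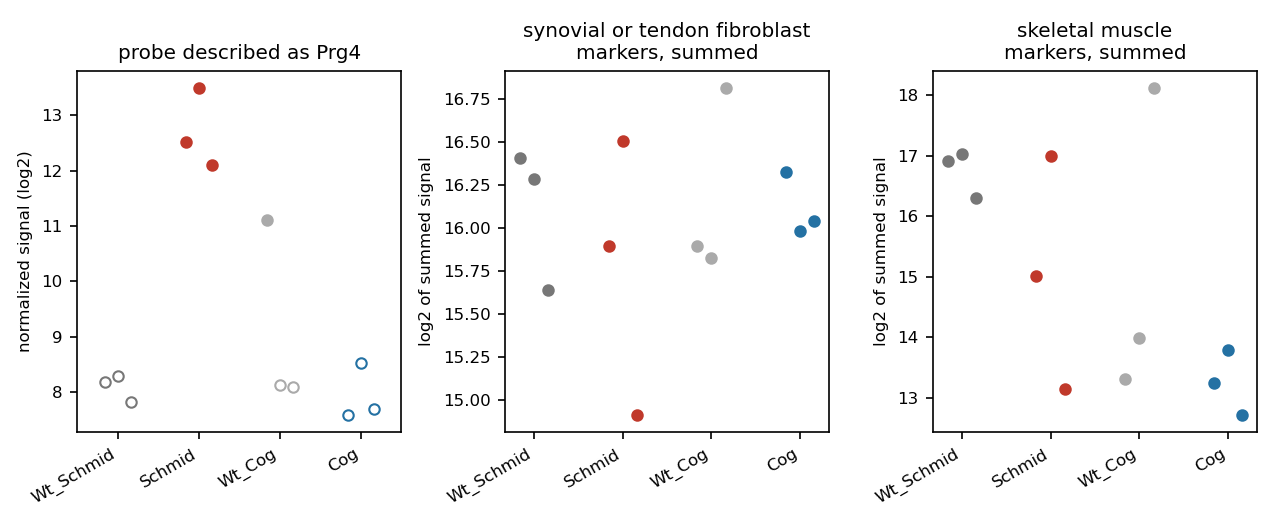
Log2 signal of the probe described as Prg4 (left; open points were not well above background), and log2 of the summed signal of 8 synovial or tendon markers (middle) and 6 skeletal muscle markers (right), by group with 1 point per array. The Schmid points lie between 12.11 and 13.50 on the left, and the marker sums of Schmid and its wildtype overlap in both other panels.

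Promoter windows of 300 bases, from 250 before to 50 after the start site, were found in RefSeq (GRCm38.p6) for 6 of the 9 symbols, with 7 windows since Matn4 has 2, and none was listed for Matn2, Comp and Prg4. Those of Matn1 (chr4:130944135-130944434, plus strand) and Chad (chr11:94564797-94565096, plus strand) are printed because these genes were called both in Schmid and between the mutants. They were searched on both strands for ACAATG, a core bound by SOX factors, for the ER stress response element, which is CCAAT followed by CCACG after a gap of 9 bases, for TGATGNAA, the composite element of ATF4 and C/EBP, and for TATAAA. Capitals mark matches.
Matn1: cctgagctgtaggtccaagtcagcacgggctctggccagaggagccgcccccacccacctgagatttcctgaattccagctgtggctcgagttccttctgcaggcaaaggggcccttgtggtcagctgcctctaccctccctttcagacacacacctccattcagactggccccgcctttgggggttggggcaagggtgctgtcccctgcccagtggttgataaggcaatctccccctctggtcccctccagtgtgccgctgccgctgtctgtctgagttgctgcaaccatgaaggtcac
Chad: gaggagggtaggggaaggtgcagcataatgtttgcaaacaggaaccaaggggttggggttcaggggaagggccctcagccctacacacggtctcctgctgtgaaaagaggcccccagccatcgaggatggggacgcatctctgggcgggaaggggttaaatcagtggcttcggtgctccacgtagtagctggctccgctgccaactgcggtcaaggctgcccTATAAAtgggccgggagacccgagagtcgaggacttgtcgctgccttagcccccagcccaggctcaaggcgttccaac

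The Chad window holds TATAAA from position -28 relative to the start site, a match found in 13.6% of all 32851 windows, and the Matn1 window holds none of the 4 motifs. Over the 7 member windows, TGATGNAA was found in 1, of Matn4, against 3.97% of all windows. ACAATG and the ER stress response element were in 0 of 7, against 12.6% and 0.119% of all. The motifs do not overlap one another at these matches, and a match or its lack is a description of these letters only.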

How the data were processed

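One array per mouse was read, 12 in all, in 4 groups taken from the sample labels. Per the file headers, the authors extracted intensity values from the scans with Agilent Feature Extraction 9.5.3. The deposited intensity values were not normalized between arrays, and the deposited series matrix holds log2 values after the authors' normexp and quantile steps. Following the study's methods, backgrounds were corrected by normexp (offset 50), controls were left out, values were quantile normalized and spots of a probe averaged (R 4.3.3, limma 3.58.1 and the data.table package, version 1.17.8). Mean foreground and median background signals were used and outlier-flagged spots left out, which are choices made here. Group means were fitted to all 12 arrays with limma, leaving 8 residual degrees of freedom, and p-values were adjusted over 41174 probes. The number of arrays limits the precision. RNA amplification can compress or distort differences, and quantile normalization reports changes relative to the bulk of probes.

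The members and gene lists were chosen with earlier results of these data known. All members are named, with from each list the called genes, at most 3 by size of change, counts for the rest, and a few uncalled genes chosen after their values were seen. At the brightest probe of each gene, the marker lists gave in Schmid 2 of 7 hypertrophic, 2 of 8 proliferating, 1 of 6 osteoblast and 3 of 5 red cell markers lower. They also gave 4 of 6 endothelial, 0 of 4 osteoclast, 1 of 8 synovial or tendon and 0 of 6 muscle markers lower, and none higher in any list. In Cog they gave Ihh, Dmp1, Cldn5 and Thy1 lower and Scx higher. Over 12818 probes well above background on all arrays, deviations from group means correlated between same-numbered arrays by 0.31, 0.28 and 0.12 for Schmid and its wildtype, by -0.21, 0.15 and -0.20 for Cog and its wildtype, and by 0.50, 0.12 and 0.27 for both wildtype groups, which are of different backgrounds. Since groups of different backgrounds correlated as well, these values cannot tell whether same-numbered Schmid and wildtype mice were paired. The reported fit did not use the numbers, which entered as a block in an alternative only. The labels give no shared litter or day for a number. Alternatives changed the signal, scaling, filter, samples, weights, blocks and position trends.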

Additional observations from a re-analysis of the deposited data

Results flagged for a closer look

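The Schmid and Cog changes of Matn1 differed by -2.18 log2 units (adjusted p = 0.0227 by limma). All 3 Schmid mice were below their wildtype, as for 26% of all probes. All 3 Cog mice were below theirs, as for 13% of all probes, but the Cog change of -0.43 did not pass the test (adjusted p = 0.567). The changes of Chad differed by -2.10 (adjusted p = 0.00686), with all 3 Schmid mice below their wildtype and the Cog mice overlapping theirs. At the probe described as Prg4 the changes differed by 5.79 (adjusted p = 0.00469), with signal well above background in all 3 Schmid mice and in none of the Cog mice. That value rests on signals at background and on wildtype Cog replicate 1, at 11.11, and is no measure of size. These were singled out because the effects of the mutants differed in a direct test.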

How the results depend on the processing

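In Schmid against wildtype, the calls of Matn1, Matn2, Chad and the probe described as Prg4 held under all 25 alternatives, with changes of -2.92 to -2.08, -1.87 to -1.57, -2.32 to -1.63 and 4.22 to 6.97, and adjusted p of at most 0.0148, 0.0177, 0.0118 and 0.00894. In Cog no member was called under any of 25.

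The count of members called lower in the difference between the mutants, 2 in the reported setting, was 1 with the processed signal (75th percentile scaling or quantile normalization), with the row trend removed, and with the row and GC trends removed, where Matn1 lost its call (adjusted p = 0.0948, 0.076, 0.0636 and 0.0732). Leaving out 1 array at a time it ranged from 1 to 3, with Matn1 lost without Schmid replicate 2 or 3 or without wildtype Cog replicate 2 or 3. Matn4 was gained without wildtype Schmid replicate 2 (-1.72, adjusted p = 0.0376) and Matn2 without Cog replicate 3 (-1.70, adjusted p = 0.0139). It was 3 with array weights and with slide as a random block, where Matn2 was gained (adjusted p = 0.0119 and 0.0222). The slide block cannot separate slide from genotype. The replicate block gained Matn2 too (count 3, adjusted p = 0.0214) and changed no other call of a member. Leaving out 1 array at a time, members called lower in Schmid numbered 3 to 4, and members called higher between the wildtype groups 0 to 1. The cause of these shifts was not tested.

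The fit with scan day as a block was chosen after seeing the data. It leaves Schmid against wildtype replicates 1 and 2, scanned on the same day, and kept Matn1, Matn2 and Chad (-2.78, -1.87 and -1.98). The Cog comparison lies within 1 scan day. Scaling to the 75th percentile moved the median of all probes in Schmid from -0.06 to -0.40 (processed signal) and -0.35 (normexp), and in Cog to 0.43 and 0.01. All member probes were well above background, so low signal limits the values of the probe described as Prg4 and of no member.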
